A study of Mus musculus with 6 samples.

Results

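The 10 genes described here encode receptors, ligands and target genes of the Notch pathway: Notch1, Notch2, Notch3, Notch4, Jag1, Jag2, Dll4, Hes1, Hey1 and Heyl. Every probe that the annotation of the Illumina mouse bead array pairs with one of these symbols was read, which gave 13 of the 45281 probes, for 10 of the 19057 genes with a symbol of their own. RNA was measured on 6 arrays of liver cells, 1 array for each condition and with no replicate of any condition, from mice of mixed C57BL/6 x 129 strain. Hepatocytes came from wild type mice and from DDB1F/F;Alb-Cre+/+ mice, in which the albumin promoter drives Cre in hepatocytes and deletes DDB1, an adaptor of the Cullin4 ubiquitin ligase. EpCAM+ cells, the non-parenchymal cells sorted with an antibody to the epithelial adhesion molecule EpCAM, came from DDB1F/F;Alb-Cre+/+ mice of 4 weeks, from DDB1F/F;Alb-Cre+/- mice of 6 weeks, from DDB1F/F;Mx1-Cre+/- mice and from wild type mice fed DDC, in full 3,5-diethoxycarbonyl-1,4-dihydro-collidine, a chemical that injures the liver. The paper's sort also used an antibody to the macrophage protein encoded by Adgre1 and took cells negative for it. The Mx1 promoter responds to interferon, was induced in this study with poly(I:C), and is not limited to hepatocytes. The labels give no age for the other arrays and do not say whether animals were pooled, so age, genotype and array cannot be told apart. Their tissue label reads mammary, whereas the study describes liver, and Apoa1, a hepatocyte gene, gave a normalized signal of 45288 and 57308 in mutant and wild type hepatocytes.

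Notch receptors are single-pass proteins that bind ligands of the Jagged and Delta families on a neighbouring cell. Binding lets the gamma-secretase complex release the intracellular part of the receptor, which enters the nucleus, joins the DNA-binding protein RBPJ and a Mastermind coactivator, and turns on repressors of the Hes and Hey families. In the liver this pathway is known for its part in bile duct formation, and loss of one JAG1 copy in humans causes a syndrome with too few bile ducts.

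The signals are the quantile normalized values of the authors, and a signal is called above background where its detection p against the negative control beads was under 0.05. Of all probes, 11429 (wild type hepatocytes) to 17152 (DDC EpCAM+ cells) were above background, and the lowest such signal lay between 110 and 159. Of the 13 member probes, 6 were above background on no array, among them every probe of Notch2, Notch3 and Jag2. Ddb1 itself read 169 in Alb-Cre+/+ hepatocytes against 499 in wild type hepatocytes, and 205 to 317 in EpCAM+ cells; where its probe lies relative to the deleted part is not known here. Epcam read 126 in Alb-Cre+/+, 162 in Mx1-Cre and 177 in DDC EpCAM+ cells, while the 112 in Alb-Cre+/- EpCAM+ cells and both hepatocyte signals were not above background. The probe for the sorted antigen was thus dim on every array. Of 8 measured cholangiocyte markers that were tested, however, 8 were higher in EpCAM+ cells, and of 8 hepatocyte markers 7 were lower, where 10.1% of all 13740 probes tested were higher and 10.7% lower. None of those cholangiocyte markers was above background in wild type hepatocytes, so that they entered the test through the EpCAM+ arrays and their direction was partly given by that filter. Of the hepatocyte markers that were lower, Alb, Cyp2e1, Cps1 and Pck1 were not above background on every EpCAM+ array. They entered the test through the hepatocyte arrays only, so their direction was partly given as well. The Alb-Cre+/+ hepatocytes also carried 7 of 9 cholangiocyte markers above background, with a summed signal of 5522 against 924 in wild type hepatocytes, where none was above background, and 25258 to 42386 in EpCAM+ cells.

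Promoter sequence is shown for the Jag1 ligand and for Nrarp, a feedback inhibitor of the receptor, since both were higher in EpCAM+ cells, and for Notch1, the receptor measured on every array. The sequences are the 250 bases before the annotated start in RefSeq, build GRCm38.p6, written 5′ to 3′ on the strand of the gene, and capitals mark the N-box, a site bound by Hes repressors (CACNAG, or CTNGTG on the other strand).
Jag1, chr2:137116521-137116770, minus strand: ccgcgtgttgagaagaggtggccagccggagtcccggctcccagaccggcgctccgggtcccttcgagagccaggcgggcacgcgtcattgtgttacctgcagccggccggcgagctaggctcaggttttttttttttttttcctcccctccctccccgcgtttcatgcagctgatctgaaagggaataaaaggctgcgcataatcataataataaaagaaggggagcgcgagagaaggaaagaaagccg
Nrarp, chr2:25180508-25180757, plus strand: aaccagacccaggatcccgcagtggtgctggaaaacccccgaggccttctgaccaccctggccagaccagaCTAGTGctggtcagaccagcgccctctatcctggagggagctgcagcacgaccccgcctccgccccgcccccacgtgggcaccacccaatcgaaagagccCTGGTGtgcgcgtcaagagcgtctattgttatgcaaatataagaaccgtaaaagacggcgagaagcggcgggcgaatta
Notch1, chr2:26503823-26504072, minus strand: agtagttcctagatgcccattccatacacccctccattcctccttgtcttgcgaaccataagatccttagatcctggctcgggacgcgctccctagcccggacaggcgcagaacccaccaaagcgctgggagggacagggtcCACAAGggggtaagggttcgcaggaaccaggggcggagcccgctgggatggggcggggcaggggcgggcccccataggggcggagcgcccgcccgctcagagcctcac
The N-box was found at -179 and -79 in Nrarp and at -108 in Notch1, counted from the start, and not in this window of Jag1. The table held a promoter for 7 of the 10 members, and 4 of these 7 (Notch1, Notch2, Notch3 and Dll4) held an N-box, against 36.7% of 32851 promoters of the same length. The core of the RBPJ site (TGGGAA, or TTCCCA on the other strand; it does not overlap the N-box) was in 21.6% of those promoters and in 0 of the 7. A match is a description of the letters and no evidence of binding.

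Among the receptors, Notch1 was above background on all 6 arrays. It read 492 in wild type and 864 in Alb-Cre+/+ hepatocytes, and 812 in Mx1-Cre, 662 in Alb-Cre+/-, 346 in DDC and 221 in Alb-Cre+/+ EpCAM+ cells, with a standard error over beads of 4.08 to 7.21% of the signal. The fractions therefore overlapped, and the EpCAM+ arrays held both a signal next to the highest and the lowest signal. With the 4 EpCAM+ arrays set against the 2 hepatocyte arrays in limma, Notch1 differed by -0.53 on the log2 scale (SE 0.57, adjusted p = 0.52). Within the Alb-Cre+/+ genotype it was 3.91-fold lower in EpCAM+ cells than in hepatocytes. Alb-Cre+/+ EpCAM+ cells were also 2.23-fold below wild type hepatocytes, whereas those of the Alb-Cre+/- and Mx1-Cre mutants were 1.35-fold and 1.65-fold above them. DDC EpCAM+ cells lay 1.42-fold below wild type hepatocytes (log2 -0.51), but 0.21 above them on the log2 scale when the arrays were scaled to their medians.

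Notch4, a receptor known from endothelial cells, was measured at 1 of its 2 probes. This probe read 478 in wild type and 635 in Alb-Cre+/+ hepatocytes, 570 in Alb-Cre+/-, 517 in Mx1-Cre and 377 in DDC EpCAM+ cells, and 109 in Alb-Cre+/+ EpCAM+ cells, which was not above background. The Alb-Cre+/+ EpCAM+ array was the lowest, at least 4.01-fold below wild type hepatocytes (at least 2.45-fold with median scaling), at least 5.33-fold below Alb-Cre+/+ hepatocytes and at least 3.17-fold below DDC EpCAM+ cells. Here and below, "at least" marks a fold against the lowest signal above background of the dim array, or its own signal where that was higher. The gap between the Alb-Cre+/+ and the next EpCAM+ array was 0.750 of the range of the 4 EpCAM+ arrays on the log2 scale. That is within the limit of Dixon's outlier test, and none of the 39 probes examined was past that limit. Since the 4 arrays are of different models and not replicates, this test cannot say whether an array is aberrant. The other probe of Notch4 was not above background on any array (76.1 to 86.6). Between fractions Notch4 differed by -0.71 on the log2 scale (SE 0.64, adjusted p = 0.44 in limma). The summed signal of the endothelial markers did not follow the same order. In Alb-Cre+/+ EpCAM+ cells 11 of 12 such markers were above background, and their summed signal was 23588, where the Alb-Cre+/- mutant had 34016, the Mx1-Cre mutant 17803 and DDC 3103. In the 3 mutants most of that sum was Clec4g, a lectin of sinusoidal endothelium, at 16337, 23781 and 12143 in the same order, and it read 1275 after DDC. Single markers differed: in that order of mutants Egfl7 read 747, 1459 and 1332, ranked as Notch4, whereas Stab2 read 1024, 1092 and 671. Pecam1, Tek and Tie1 also ranked as Notch4 over the mutants, Tie1 being not above background in Alb-Cre+/+. Lyve1 was lowest in Alb-Cre+/+ but highest in Mx1-Cre, and Clec4g, Cdh5, Kdr, Gpr182, Eng and Emcn were not lowest in Alb-Cre+/+. Among the EpCAM+ arrays Egfl7 and Stab2 were lowest after DDC, at 525 and 103, the latter not above background. The part of endothelial cells in the Notch4 signal was not tested. Notch2 (86.8 to 110 at 2 probes) and Notch3 (107 to 117), the receptors known in biliary cells and in mural cells, were not detectable at this sensitivity, and their probes say nothing of their order.

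**Figure D1:**
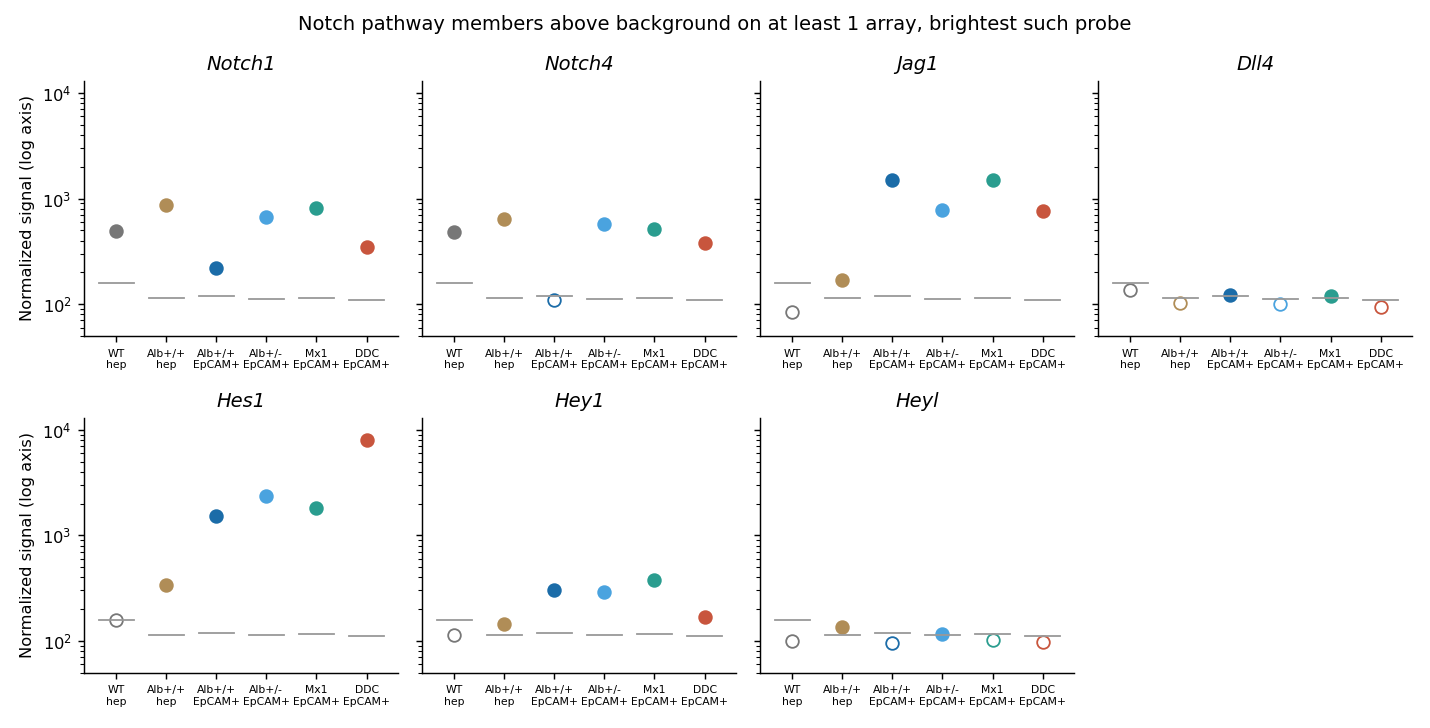
Normalized signal (log axis) of the 7 members above background on at least 1 array, 1 point per array with bars of 1 standard error over beads, mostly hidden by the points. Open points were not above background and grey lines give the lowest signal above background of each array; Jag1 and Hes1 lie higher in the 4 EpCAM+ arrays than in both hepatocyte arrays, whereas the points of Notch1 overlap.

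Jag1, a Jagged ligand, was the member ligand with clear signal. It was not above background in wild type hepatocytes (83.6) and read 168 in Alb-Cre+/+ hepatocytes, whereas the EpCAM+ cells gave 1512 (Alb-Cre+/+), 1504 (Mx1-Cre), 783 (Alb-Cre+/-) and 771 (DDC). All 4 EpCAM+ arrays lay above both hepatocyte arrays. The Alb-Cre+/+ and Mx1-Cre signals were the higher ones. In limma Jag1 rose by 2.96 on the log2 scale in EpCAM+ cells (SE 0.43, adjusted p = 0.0025). Its fold over wild type hepatocytes was at least 9.50 for the Alb-Cre+/+, 9.45 for the Mx1-Cre, 4.92 for the Alb-Cre+/- and 4.84 for the DDC EpCAM+ cells. Within the Alb-Cre+/+ genotype it was 9.02-fold higher in EpCAM+ cells than in hepatocytes.

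The other member ligands gave little or no signal. Jag2 was not above background on any array (79.1 to 110). Dll4, a Delta ligand known from vessels, was above background at 1 of 2 probes in Alb-Cre+/+ (123) and Mx1-Cre (119) EpCAM+ cells only, just above the lowest signals called there (119 and 115), and its signal of 137 in wild type hepatocytes was not above background. It was therefore not tested between fractions.

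Hes1, the transcriptional repressor that is the best known Notch target, read 157 in wild type hepatocytes, just short of the lowest signal called there (159), and 337 in Alb-Cre+/+ hepatocytes. The EpCAM+ cells gave 1537 in Alb-Cre+/+, 1829 in Mx1-Cre, 2376 in Alb-Cre+/- and 8026 after DDC. All 4 EpCAM+ arrays again exceeded both hepatocyte arrays, and the DDC array was the highest. In limma Hes1 rose by 3.56 on the log2 scale in EpCAM+ cells (SE 0.66, adjusted p = 0.0073). The fold over wild type hepatocytes reached at least 9.66 for the Alb-Cre+/+, 11.5 for the Mx1-Cre, 14.9 for the Alb-Cre+/- and 50.4 for the DDC EpCAM+ cells.

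Hey1, a related repressor, had the same order of fractions at a smaller difference. Its signal was 113 in wild type hepatocytes, not above background, and 145 in Alb-Cre+/+ hepatocytes, against 168 in DDC, 288 in Alb-Cre+/-, 301 in Alb-Cre+/+ and 380 in Mx1-Cre EpCAM+ cells. No EpCAM+ array overlapped the hepatocytes, but the difference of 1.08 on the log2 scale did not pass the test (SE 0.36, adjusted p = 0.063). Heyl, the third Hey repressor, was above background only in Alb-Cre+/+ hepatocytes (135) and Alb-Cre+/- EpCAM+ cells (115), so that it was not tested.

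Of the 13 member probes, 5 met the filter of the fit, namely Notch1, Notch4, Jag1, Hes1 and Hey1. Jag1, Hes1 and Hey1 met it only through the EpCAM+ arrays and Notch4 only through the hepatocyte arrays, so the direction of these 4 was partly given by the filter. 2 of the 5 rose (Jag1 and Hes1) and none fell, where 10.1% of 13740 probes rose and 10.7% fell, and 3 of the 5 did not overlap between fractions in the direction of EpCAM+ cells, where 24.6% of all probes did and 21.4% did in the other direction. The median difference over all probes was 0.04 on the log2 scale. With 1 hepatocyte array left in limma, assumed to vary like the others, calls were lost while the differences stayed large. Without wild type hepatocytes Jag1 differed by 2.69 on the log2 scale (adjusted p = 0.06) and Hes1 by 3.00 (adjusted p = 0.18), and without the Alb-Cre+/+ hepatocytes Jag1 differed by 3.24 (adjusted p = 0.02) and Hes1 by 4.11 (adjusted p = 0.051). The spread in this fit is that between different mouse models, and an exact test of 4 against 2 arrays cannot go below p = 0.067. In bulk samples, fewer cells of a type and less RNA per cell cannot be told apart.

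Between single arrays, the members over 2-fold apart from wild type hepatocytes were counted. For the Alb-Cre+/+ EpCAM+ cells 2 were higher (Jag1 and Hes1) and 2 lower (Notch1 and Notch4), where 16.3% of 16490 probes were higher and 16.7% lower. In the other models none was lower. Jag1 and Hes1 were the 2 higher ones for the Alb-Cre+/- mutant (14.6% of all probes higher and 14.8% lower) and for DDC (14.7% and 14.8%), and Hey1 joined them in the Mx1-Cre mutant, at least 2.39-fold higher (14.8% and 14.7%). These 4 comparisons share the wild type array. Within the Alb-Cre+/+ genotype, 3 members were higher in EpCAM+ cells (Jag1, Hes1 at 4.56-fold and Hey1 at 2.08-fold) and 2 lower (Notch1 and Notch4), where 12.7% of 18118 probes were higher and 11.5% lower.

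**Figure D2:**
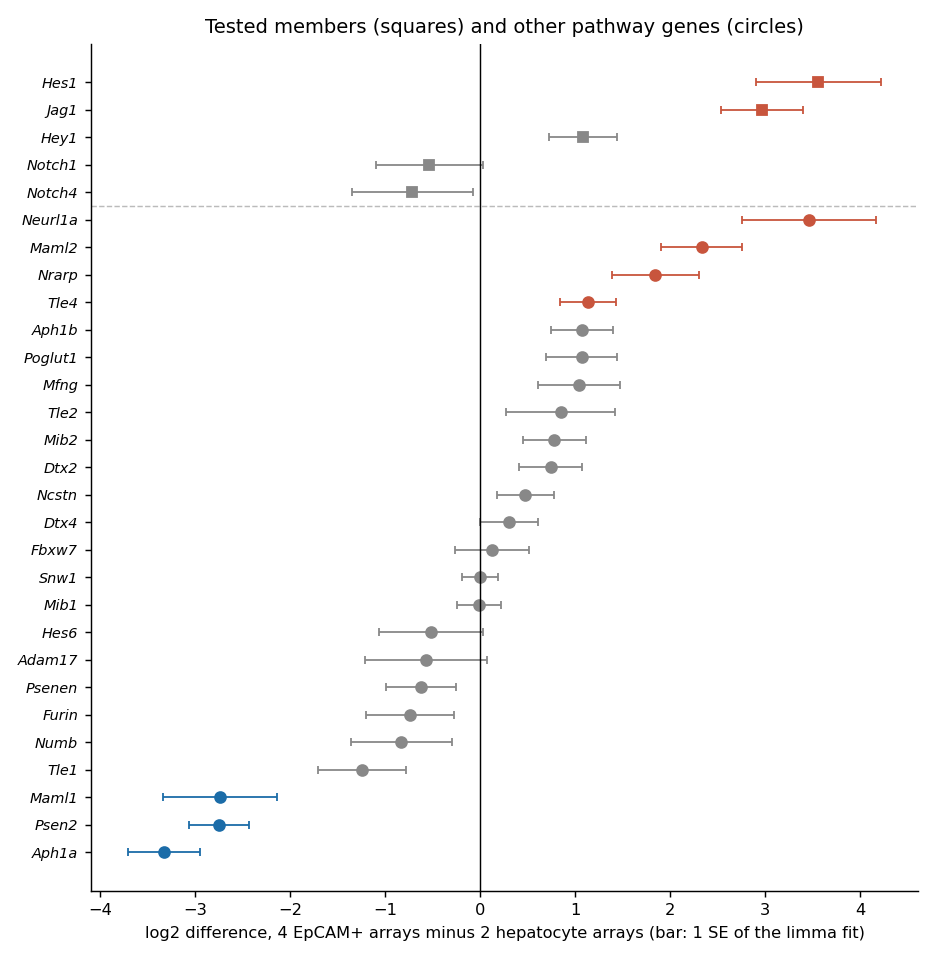
Difference of the mean log2 signal, 4 EpCAM+ arrays minus 2 hepatocyte arrays, with 1 SE of the limma fit, for the 5 tested members (squares) and the 24 other tested genes of the pathway (circles). Red marks genes that rose and blue genes that fell at an adjusted p under 0.05: Hes1 and Jag1 rose among the members, and 4 other genes rose and 3 fell.

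The hepatocytes of the 2 genotypes were then compared, 1 array against 1. In those of the mutant Hes1 exceeded the wild type by at least 2.12-fold and Jag1 by at least 1.05-fold, while Notch1 was 1.76-fold and Notch4 1.33-fold higher. One member, Hes1, was over 2-fold higher and none over 2-fold lower, where 7.8% of 16568 probes were higher and 8.47% lower. These are the arrays between which the cholangiocyte markers differed as well, with Krt19, a keratin of bile duct cells, at 457 against 73.7, not above background, and Tspan8, a tetraspanin, at 2554 against 119, not above background. Other marker lists differed between these arrays too. The summed signal in mutant and wild type hepatocytes was 16759 and 3741 for the endothelial, 8215 and 2263 for the macrophage, and 7481 and 2024 for the stellate cell, fibroblast and mural cell markers. The part of these cells in the members' signals was not tested. With median scaling Notch1 rose to a log2 difference of 1.57 from 0.81 and Notch4 to 1.14 from 0.41, both then over 2-fold.

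The EpCAM+ cells of the 3 DDB1 mutants were next set against those of the chemical model. Hes1 was lower in every mutant than after DDC, 5.22-fold for the Alb-Cre+/+, 4.39-fold for the Mx1-Cre and 3.38-fold for the Alb-Cre+/- EpCAM+ cells. Hey1 ran the other way, with a fold of 1.79 for the Alb-Cre+/+, 1.71 for the Alb-Cre+/- and 2.26 for the Mx1-Cre EpCAM+ cells above DDC. Jag1 was 1.96-fold (Alb-Cre+/+) and 1.95-fold (Mx1-Cre) higher, which became 1.28-fold and 1.79-fold with median scaling, and close to the DDC level in Alb-Cre+/-, with a log2 difference of 0.02 that became -0.28 with median scaling. Thus Hes1 and Hey1, both repressors of the same family, differed from DDC in opposite directions in all 3 mutants, also with quantile normalization of the non-normalized signals, median scaling and normexp background.

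Notch1 and Notch4 moved in the same direction within each mutant, but the mutants differed in that direction. Notch1 was 2.35-fold higher in Mx1-Cre and 1.91-fold higher in Alb-Cre+/- EpCAM+ cells than after DDC, and 1.57-fold lower in Alb-Cre+/+. Notch4 followed the same split, higher by 1.37-fold (Mx1-Cre) and 1.51-fold (Alb-Cre+/-), and at least 3.17-fold lower for Alb-Cre+/+. The Alb-Cre+/+ EpCAM+ array was thus the one in which both receptors were lowest.

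Over 2-fold, 2 member probes (Hes1 and Notch4) were lower and none higher in Alb-Cre+/+ than in DDC EpCAM+ cells, where 6.83% of all probes were lower and 6.98% higher. In Alb-Cre+/-, 1 (Hes1) was lower and none higher (3.92% and 4.74% of all probes). In Mx1-Cre, 1 (Hes1) was lower and 2 (Notch1 and Hey1) were higher (4.2% and 4.12%). These 3 comparisons share the DDC array. In limma, with the hepatocyte arrays sharing the estimate of the spread, the mutants differed from DDC by -2.09 for Hes1 (log2, SE 0.53, unadjusted p = 0.0053, adjusted p = 0.98) and by 0.93 for Hey1 (SE 0.38, unadjusted p = 0.042, adjusted p = 1). None of the 5 tested members passed, nor did any of the 13740 probes (0% in each direction), of which 548 had an unadjusted p under 0.05. Since DDC stands on 1 array, its own spread is not known. The endothelial markers moved with this comparison, since over 2-fold above DDC were 5 of 12 for the Alb-Cre+/+, 8 for the Alb-Cre+/- and 5 for the Mx1-Cre mutant. Of 9 macrophage markers, 1 (Alb-Cre+/+), 7 (Alb-Cre+/-) and 0 (Mx1-Cre) were over 2-fold above DDC, among them Vsig4 at 2326 for the Alb-Cre+/- mutant against 104, not above background, after DDC. Of 8 measured hepatocyte markers 4, 5 and 1 were higher in the same order, and of 9 cholangiocyte markers 2, 3 and 3 were lower and 1 in each was higher. Adgre1, the gene of the macrophage protein that the sort excluded, read 664 for the Alb-Cre+/- mutant. It was not above background in the other EpCAM+ cells. The part of these cell types in the members' values was not tested.

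**Figure D3:**
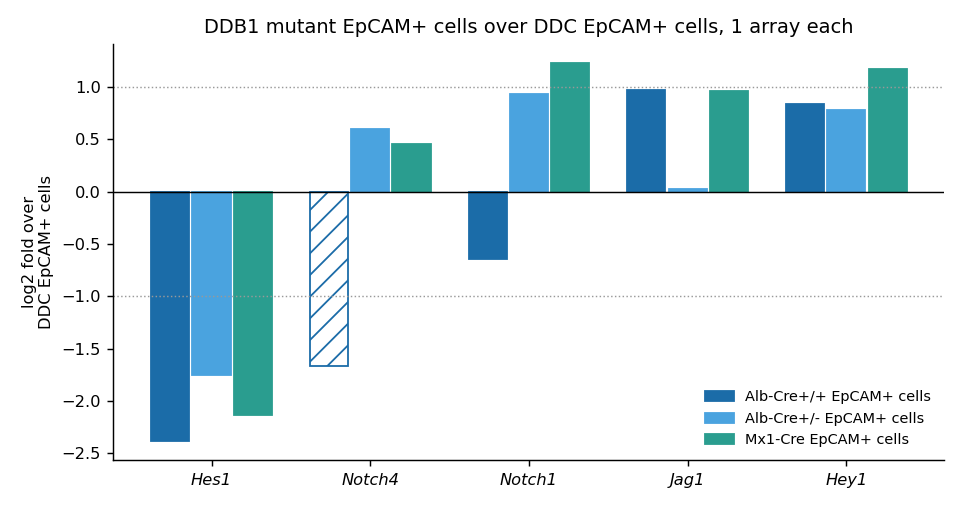
log2 fold of 5 members in EpCAM+ cells of each DDB1 mutant over DDC EpCAM+ cells, 1 array against 1, with dotted lines at 2-fold and a hatched bar for a fold that is a bound. Hes1 lies below 0 and Hey1 above 0 in all 3 mutants, and Notch1 and Notch4 lie below 0 in Alb-Cre+/+ only.

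The rest of the pathway was read from a list of 52 further genes, of which 47 had a probe, 33 were above background on at least 1 array and 24 could be tested. Of these 24, 4 rose in EpCAM+ cells, 3 fell and 17 did not pass, beside the 10.1% and 10.7% of all probes given above, with a median of 0.21 on the log2 scale against 0.04 over all probes. The genes that rose sat at different steps: Neurl1a, a ubiquitin ligase that acts on ligands, Maml2, a Mastermind coactivator, Tle4, a Groucho corepressor, and Nrarp, a target and feedback inhibitor. The genes that fell were Psen2 and Aph1a, subunits of gamma-secretase, and Maml1, another Mastermind coactivator. Neurl1a, Maml2 and Nrarp met the filter only through the EpCAM+ arrays and Aph1a and Maml1 only through the hepatocyte arrays, so the direction of these 5 was partly given by the filter.

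Neurl1a read 140, not above background, in wild type and 548 in Alb-Cre+/+ hepatocytes, against 1757 in Mx1-Cre, 1872 in Alb-Cre+/+, 3453 in Alb-Cre+/- and 7678 in DDC EpCAM+ cells (log2 difference 3.46, SE 0.71, adjusted p = 0.011 in limma). At this probe the highest signal, like that of Hes1, was the DDC array. Its other probe was above background only for the Alb-Cre+/- (159) and Alb-Cre+/+ (120) EpCAM+ cells and read 94.7 after DDC, not above background. Nrarp was not above background in wild type hepatocytes (95.7) and read 210 in Alb-Cre+/+ hepatocytes, 383 in DDC, 423 in Alb-Cre+/+, 741 in Alb-Cre+/- and 807 in Mx1-Cre EpCAM+ cells (1.84, SE 0.46, adjusted p = 0.024). Among the mutants and DDC its lowest signal was that of DDC, as for Hey1, but the Alb-Cre+/+ signal lay close to it. Maml2 read 96.7, not above background, and 179 in wild type and Alb-Cre+/+ hepatocytes and 447 to 947 in EpCAM+ cells (2.33, SE 0.42, adjusted p = 0.0067). Tle4 was measured on every array, at 918 and 661 in wild type and Alb-Cre+/+ hepatocytes and 1554 to 2001 in EpCAM+ cells (1.13, SE 0.29, adjusted p = 0.028). At the probe of the call, all EpCAM+ signals of these genes lay above both hepatocyte arrays, as did those of 24.6% of all 13740 probes tested. These genes were picked by their call, so the lack of overlap is no further result. The other probe of Maml2 was above background on 2 arrays only, and the other probes of Tle4 on none.

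Psen2, the presenilin with a probe, read 3443 in wild type and 2869 in Alb-Cre+/+ hepatocytes and only 393 to 580 in EpCAM+ cells (-2.75, SE 0.31, adjusted p = 8.1e-04). It kept its call under all 15 alternatives tried, but its other probe was above background on no array (86.0 to 101). Aph1a, at the probe of the call, was above background in hepatocytes (1789 in wild type and 738 in Alb-Cre+/+) and on no EpCAM+ array, at least 10.1-fold lower (adjusted p = 8.1e-04). Another of its 4 probes was above background on 5 arrays, at 188 in Mx1-Cre, 235 in DDC and 305 in Alb-Cre+/- EpCAM+ cells, and differed by -1.18 (adjusted p = 0.097), and one more was above background only after DDC (130). Maml1 read 2065 in wild type and 370 in Alb-Cre+/+ hepatocytes and at most 160 in EpCAM+ cells (-2.73, SE 0.60, adjusted p = 0.014), while its other probe differed by 0.17 (adjusted p = 0.70). For Aph1a and Maml1 the call thus held at 1 probe and not at another that was tested.

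**Figure D4:**
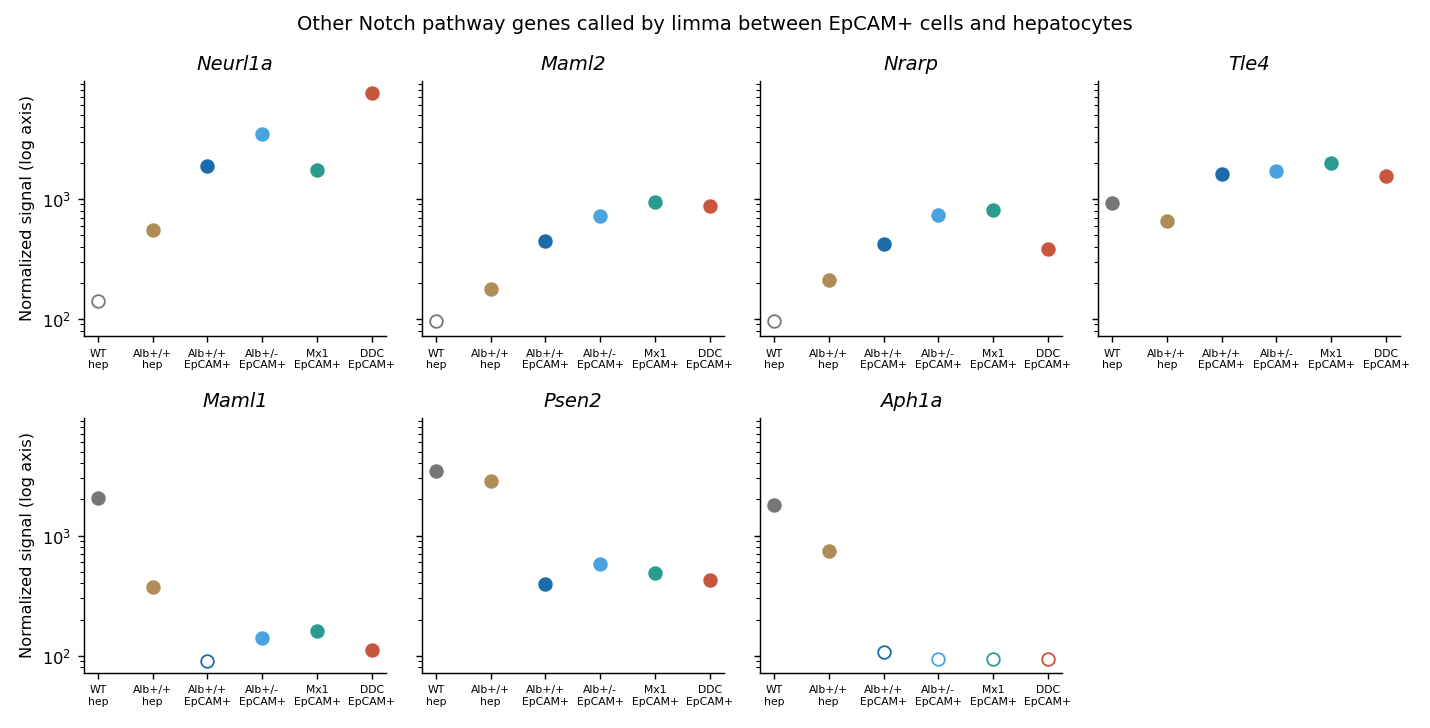
Normalized signal (log axis) of the 7 other pathway genes that passed the test between fractions, 1 point per array, open where not above background. Neurl1a, Maml2, Nrarp and Tle4 lie higher in the 4 EpCAM+ arrays, and Maml1, Psen2 and Aph1a lie higher in both hepatocyte arrays.

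By role, 1 of 3 tested genes of ligand processing rose, 2 of 9 of receptor glycosylation and cleavage fell, 2 of 6 of the nuclear complex and corepressors rose and 1 fell, 1 of 2 other target genes rose, and none of 4 regulators of receptor level passed. These are the calls given above, split by role, where 10.1% of all probes tested rose and 10.7% fell. With so few genes in a role, the roles cannot be compared. Rbpj was not above background at any of its 3 probes. Numb, an inhibitor that binds the receptor, read 1581 in Alb-Cre+/+ and 745 in wild type hepatocytes and 311 to 1005 in EpCAM+ cells, lowest in Alb-Cre+/+ like Notch1, and did not pass (-0.83, SE 0.53, adjusted p = 0.29). Hes6, a Hes family member known as an inhibitor of Hes1, read 5152 in wild type hepatocytes, 1132 in Alb-Cre+/+ hepatocytes and 1330 to 2040 in EpCAM+ cells (-0.52, SE 0.55, adjusted p = 0.51). Dlk1, a non-canonical ligand known from fetal liver cells, was above background in Alb-Cre+/+ hepatocytes (1947), Alb-Cre+/- EpCAM+ cells (405) and Alb-Cre+/+ EpCAM+ cells (138) and not on the other arrays (94.6 to 111). None of the 24 genes passed between the mutants and DDC, with a median of 0.10 on the log2 scale against 0.0087 over all probes.

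The other genes over 2-fold apart between some pair of arrays did not pass the limma test between fractions and are given as single-array values, each at its brightest probe. Among those that act on the ligand or the receptor, Adam17 encodes a protease that can shed the receptor's outer part. In EpCAM+ cells it read 1976 for the Alb-Cre+/+, 709 for the Mx1-Cre, 621 for the Alb-Cre+/- and 337 for the DDC cells. Hepatocytes gave 818 in wild type and 1461 in Alb-Cre+/+. The log2 difference between fractions was -0.57 (adjusted p = 0.54 in limma), and parentheses after the next genes give the same. At this probe Adam17 was 5.86-fold higher for the Alb-Cre+/+ EpCAM+ cells than after DDC, whereas a dimmer probe read 98.0 and 122 on those arrays. Furin, a protease that processes the receptor precursor, ran the other way, with 314 for the Alb-Cre+/+ EpCAM+ cells, 3.20-fold below the 1003 after DDC (-0.74, adjusted p = 0.28). Mfng, a Fringe glycosyltransferase, was highest on that same array at 532, at least 3.34-fold above wild type hepatocytes and 2.53-fold above DDC (1.04, adjusted p = 0.12). Poglut1, which adds glucose to the receptor, read 762 in wild type hepatocytes and 1587 to 3111 in EpCAM+ cells, 2.08-fold to 4.08-fold higher (1.07, adjusted p = 0.074). Aph1b, a gamma-secretase subunit, was at least 2.88-fold higher in the Mx1-Cre mutant and at least 2.06-fold after DDC than in wild type hepatocytes (1.07, adjusted p = 0.051), while Psenen, another subunit, was 2.41-fold lower in EpCAM+ cells than in hepatocytes of the Alb-Cre+/+ genotype (-0.62, adjusted p = 0.26). In that same pair Mib2, a ubiquitin ligase for ligands, was 2.55-fold higher (0.78, adjusted p = 0.13), Dtx2, a Deltex ubiquitin ligase, 2.65-fold (0.74, adjusted p = 0.15) and Fbxw7, which marks the intracellular receptor for degradation, 2.10-fold (0.12, adjusted p = 0.84). Of the Groucho corepressors, Tle1 was highest in wild type hepatocytes (2345) and read 417 (DDC) to 920 (Mx1-Cre) in EpCAM+ cells (-1.25, adjusted p = 0.091). Tle2 was lowest in Alb-Cre+/+ hepatocytes (192), 3.36-fold below wild type hepatocytes, and read 398 (DDC) to 1011 (Mx1-Cre) in EpCAM+ cells (0.85, adjusted p = 0.32).

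Genes with a pattern like a member's could be sought only for Notch1, the member above background on every array. Among 8033 probes above background on all 6 arrays, the log2 signals of Dgcr2 (Pearson r = 0.976), Alg2 (0.972) and Lnx2 (0.971) followed it most closely. Dgcr2 read 2140 in Alb-Cre+/+ hepatocytes and 908 in Alb-Cre+/+ EpCAM+ cells, its highest value but one and its lowest. These correlations rest on 6 arrays that share 1 chip and 1 normalization, are the highest of many, and are given as a description.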

How the data were processed

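RNA of 6 samples was hybridised to Illumina MouseWG-6 v2 bead arrays on 1 chip, 1 array per condition. The authors deposited for each probe the signal intensity as summarised by GenomeStudio without normalization, its detection p-value against negative control beads, its standard error over beads and the count of beads, and also intensities that the authors quantile normalized over the 6 arrays. The median count per array was 42 to 44 beads, and the median standard error was 5.65 to 6.13% of the signal, which covers the array measurement only. Of all probes, 34885 carried 1 gene symbol, 18 several and 10378 none in the annotation; only probes with 1 symbol were named. The number of arrays limits the precision.

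The authors' normalized intensities were read for every member probe. Other genes were read at their probe with the highest mean signal. For tests, signals under 115 (over arrays, the median of the lowest normalized signal with a detection p under 0.05) were set to that floor, and log2 was taken. Probes above background on every array of at least 1 fraction were fitted in limma 3.58.1 (R 4.3.3) with lmFit, eBayes with trend and Benjamini-Hochberg adjustment over all 13740 probes tested; an adjusted p under 0.05 was called. One fit compared EpCAM+ cells with hepatocytes, the other the DDC array with EpCAM+ cells of the 3 mutants, beside the hepatocyte arrays. The arrays within a fraction are of different mouse models, so the p-values measure the spread between models. Folds between single arrays carry no test. The script was tested on simulated data.

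Named were all members at all probes, the other pathway genes that passed the test or were over 2-fold apart or bright for their role, and the 3 genes most correlated with a member. The members, gene lists, marker lists and tests were chosen with earlier results of these data known. Alternatives were quantile normalization of the non-normalized intensities, median scaling, normexp background with an offset of 16, a detection p under 0.01, a floor at 1, probes above background on at least 1 array, eBayes without trend, array weights, 1 probe a gene, each array left out in turn, and only EpCAM+ arrays. Of the marker lists, 0 of 7 tested endothelial, 0 of 5 macrophage and none of the lymphocyte markers passed between fractions, none of the last being testable; of 4 stellate cell, fibroblast and mural cell markers 1 rose and 1 fell.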

Additional observations from a re-analysis of the deposited data

How the results depend on the processing

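The rise of Jag1 in EpCAM+ cells passed under 14 of 15 alternatives (log2 2.69 to 4.09, adjusted p 0.0019 to 0.060) and that of Hes1 under 12 of 15 (3.00 to 4.18, adjusted p 0.0060 to 0.18). Hes1 was lost with probes above background on at least 1 array (adjusted p = 0.057) and without either hepatocyte array. Hey1 passed with normexp background (adjusted p = 0.049) and without the DDC array (0.033). The count of members that rose was 2, with 1 when probes above background on at least 1 array were tested and 0 to 3 with an array left out; of members that fell it was 0, with 0 to 1. That member was Heyl, tested without wild type hepatocytes and with probes above background on at least 1 array and passing in the former only, at a log2 difference of -0.23 over signals mostly at the floor. Nrarp passed under 10 and Tle4 under 11 of 15 alternatives, Neurl1a under 13, Maml1 and Maml2 under 14, and Psen2 and Aph1a under 15. Of all probes 1382 rose and 1474 fell: 868 rose with median scaling, 590 rose and 951 fell with probes above background on at least 1 array, 679 rose and 982 fell with array weights, 936 fell with 1 probe a gene, and 356 (without wild type hepatocytes) to 1404 rose and 1013 to 2767 (without Alb-Cre+/+ hepatocytes) fell with an array left out. Between mutants and DDC, 5 rose and 420 fell with probes above background on at least 1 array, and 0 to 76 fell with an array left out, the 76 without wild type hepatocytes. The difference of Notch4 turned from -0.22 to 0.22 with array weights and ranged from -0.63 to 0.53 with an array left out, the 0.53 without Alb-Cre+/+ EpCAM+ cells. Of members over 2-fold apart between single arrays, median scaling left 1 rather than 2 lower for Alb-Cre+/+ EpCAM+ against wild type hepatocytes, gave 4 rather than 3 higher for Mx1-Cre (Notch1, 2.59-fold) and 2 rather than 3 within the Alb-Cre+/+ genotype (Hey1, 1.93-fold). With normexp background Hey1 joined the higher members over wild type hepatocytes for the Alb-Cre+/+ and Alb-Cre+/- EpCAM+ cells, and Jag1 (2.06-fold) over DDC for Mx1-Cre. In Alb-Cre+/+ over wild type hepatocytes 1 was higher, but 3 with median scaling, 0 with a detection p under 0.01 and 2 with a floor at 1. Over DDC, 2 rather than 0 were higher in Alb-Cre+/+ and 2 rather than 0 in Alb-Cre+/- EpCAM+ cells with normexp background. Median scaling moved the median log2 fold of the probes above background on both arrays of a pair. For DDC over wild type hepatocytes it went from -0.23 to 0.22 (10347 probes) and for mutant over wild type hepatocytes from -0.19 to 0.32 (10733 probes). The causes were not tested. No paired analysis was possible because each condition has 1 array and the groups share no replicate that pairs them. Dim probes limit what can be said of Notch2, Notch3, Jag2, Dll4 and Heyl.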
